A study of Mus musculus with 10 samples.

Results

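The genes described here encode the enzymes that write and erase DNA methylation, together with the pair of isocitrate dehydrogenases that feed or poison the erasers: Dnmt1, Dnmt3a, Dnmt3b, Tet1, Tet2, Tet3, Idh1 and Idh2. They were chosen by name, and their probes were found through the RefSeq accessions printed beside each probe, which gave 14 probes for 8 genes out of 20972 genes named on the array. All 8 genes were well above background on 10 of 10 arrays through their brightest probe, so no member was lost to a filter on low signal.

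Dnmt1 copies existing methyl marks onto new DNA strands at replication, and Dnmt3a and Dnmt3b place marks on unmethylated DNA. The Tet enzymes oxidise methylcytosine to hydroxymethylcytosine and further products, which are then lost by base excision or by dilution at replication. Idh1, in the cytosol, and Idh2, in mitochondria, make the 2-oxoglutarate that Tet enzymes consume, and mutant forms make 2-hydroxyglutarate, which inhibits them. DNMT3A, TET2, IDH1 and IDH2 are among the genes mutated in human myelodysplastic syndrome and related myeloid disease, and loss of Dnmt3a or Tet2 expands blood stem cells in mice.

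The cells were LSK bone marrow cells, a sort gate for cells that lack lineage markers and carry Sca-1 and c-Kit, which takes in stem cells and early progenitors of blood. They were sorted as CD45.2-positive, which marks donor cells, after transplantation in the C57BL/6 strain. Every donor carried the tamoxifen-inducible Cre, as Cre-Ert alone (WT) or as Cre-Ert;Ezh2fl/fl (KO). The series text names tamoxifen for both, which deletes Ezh2, a histone methyltransferase, in the KO. Slide 1 held 2 arrays labelled 3 months after transplantation, 1 of each genotype. Slide 2 held 1 WT and 7 KO arrays labelled 9-12 months. Of these 7, 2 were labelled myelodysplastic syndrome (MDS), 3 an overlap of MDS with myeloproliferative neoplasm (MDS/MPN), 1 was undetermined, and 1 was a mixed sample of these diseases. The label of MDS/MPN replicate 1 adds TC, which the labels do not spell out, and that of replicate 3 adds CMMoL. Each of the 6 KO arrays with its own disease label or undetermined carries an individual sample code, here called the 6 individual KO arrays. The labels do not say whether the other 4 arrays hold pooled mice, nor whether the mixed sample shares mice with the 6, although the series text gives n=3 at 3 months. P values therefore measure the spread between these samples.

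For 4 arrays the scanner files and the value table give opposite time labels. The slide 1 values stand in the value table under 9-12 months (WT and mixed KO), and the values of the slide 2 WT and mixed KO arrays stand there under 3 months. Arrays are therefore named by their slide below, and every statement about time, or about the mixed sample, depends on the scanner file labels. Of the 55681 probes per array, between 32.6% and 47.6% stood well above background, and the 75th percentile ran from 78.7 to 301.7 intensity units. The brightest array on both counts was MDS/MPN replicate 2, and the next brightest 75th percentile was 144.8. The single Ezh2 probe read 2.13 to 3.35 on the 8 KO arrays and 2.14 and 2.63 on the WT arrays, but its place relative to the deleted exons is unknown here, so it checks nothing. All 8 LSK gate markers were on the array, and 7 or 8 of them were well above background on every array.

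The promoters of 3 members show how differently these genes are built around their starts: Dnmt1 for its replication-type motif, Tet1 and Tet2 as the Tet genes with the wider spread between arrays and with KO minus WT differences of opposite sign. Each is the 250 bases before a start listed by RefSeq, 5′ to 3′, on the minus strand of GRCm38.p6, from RefSeq. Dnmt1 has 3 such starts, and the one shown, inside the gene span given below, was picked for the motif. The Dnmt1 bases shown lie downstream of both other starts, so they may also be part of what is transcribed from those. In Dnmt1 (chr9:20952624-20952873) the capitals mark the motif TTTNGCGC, read here on the opposite strand, which is a form of the site bound by E2F factors, regulators of S phase genes. In Tet1 (chr10:62887325-62887574) and Tet2 (chr3:133544391-133544640) the capitals mark each CpG, the dinucleotide that the Dnmt enzymes methylate.
Dnmt1: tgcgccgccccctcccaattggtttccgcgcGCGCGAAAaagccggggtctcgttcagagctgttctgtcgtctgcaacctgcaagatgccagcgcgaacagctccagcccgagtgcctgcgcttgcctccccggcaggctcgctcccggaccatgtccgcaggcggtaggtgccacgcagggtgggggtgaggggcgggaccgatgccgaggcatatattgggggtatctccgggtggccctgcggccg
Tet1: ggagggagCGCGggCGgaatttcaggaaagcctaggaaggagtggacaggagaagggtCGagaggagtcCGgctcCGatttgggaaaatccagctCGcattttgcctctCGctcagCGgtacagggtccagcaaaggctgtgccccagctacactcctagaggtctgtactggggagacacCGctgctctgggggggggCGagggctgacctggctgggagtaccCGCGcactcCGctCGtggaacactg
Tet2: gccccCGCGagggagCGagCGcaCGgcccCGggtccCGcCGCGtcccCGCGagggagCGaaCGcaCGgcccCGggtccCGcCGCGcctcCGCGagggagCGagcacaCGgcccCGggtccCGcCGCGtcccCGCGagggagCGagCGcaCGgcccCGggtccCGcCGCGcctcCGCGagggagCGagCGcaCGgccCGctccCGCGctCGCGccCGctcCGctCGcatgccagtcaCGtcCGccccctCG
RefSeq gave 13 promoter windows of 300 bases (250 before to 50 after a start) for the 8 members. Searched on both strands, TTTNGCGC lay at 2 places in this Dnmt1 window, 1 of them in the bases printed, and in 0 of the other 12 member windows. It was present in 1.38% of 32851 RefSeq windows of that length and at 2 or more places in 14 of them. CpG density also set the members apart: the Tet2 window held 57 CpG, more than 99.8% of all windows, and the Tet1 window held 17, against a median of 7 over all windows. The most CpG-rich Dnmt3a window held 47, the Dnmt3b window 30 and the Dnmt1 window shown 33, while the other 2 Dnmt1 windows held 12 and 2. These are descriptions of the sequence, and methylation of the promoters was not measured.

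All levels are log2 signals over the 75th percentile of the array, for the brightest probe of each gene. They allow arrays to be compared for 1 gene and not 1 gene with another. In bulk RNA, fewer cells of a type and less RNA per cell cannot be told apart.

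**Figure D1:**
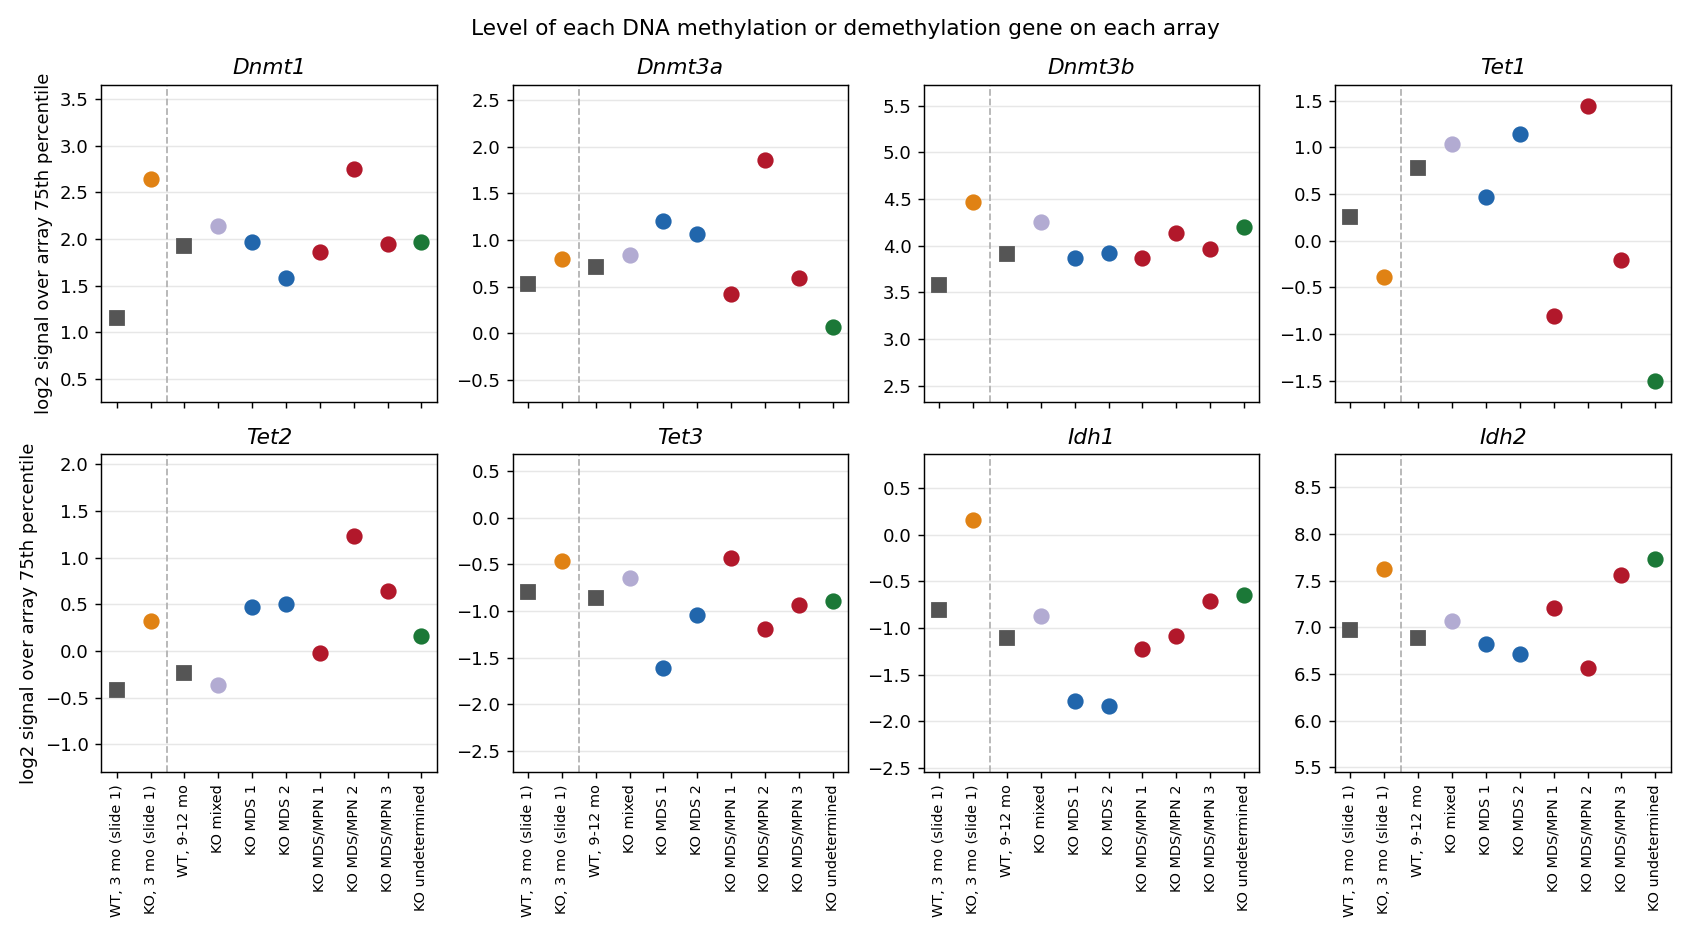
Level of each of the 8 genes (log2 signal over the array's 75th percentile, vertical axis of equal span in every panel) on each of the 10 arrays, with WT as squares and KO as circles, and a dashed line between slide 1 and slide 2. Dnmt3b stayed within 3.86 to 4.20 on the 6 individual KO arrays, while Tet1 ran from -1.51 to 1.45.

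Among the writers, Dnmt1 (chromosome 9, 20907206 to 20959888, GRCm38.p6), the maintenance methyltransferase, read 1.16 on the WT array and 2.64 on the KO array of slide 1. On slide 2 it read 1.93 on the WT array, 2.14 on the mixed array, 1.96 and 1.58 on the MDS arrays, 1.86, 2.75 and 1.94 on the MDS/MPN arrays and 1.96 on the undetermined array. The slide 1 KO array and MDS/MPN replicate 2 were high, the slide 1 WT array was low, and the other 7 lay close together, with the slide 2 WT array among the KO arrays.

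Dnmt3a (chromosome 12, 3801559 to 3914443), a de novo methyltransferase, read 0.53 and 0.80 on the WT and KO arrays of slide 1. On slide 2 it was at 0.70 on the WT array, 0.84 on the mixed array, 1.21 and 1.06 on the MDS arrays, 0.42, 1.85 and 0.59 on the MDS/MPN arrays and 0.07 on the undetermined array. MDS/MPN replicate 2 again was the highest of the 10 and the undetermined array the lowest, and both WT arrays lay in the middle of the KO arrays.

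Dnmt3b (chromosome 2, 153649411 to 153687730), the other de novo methyltransferase, was the steadiest member. It read 3.58 and 4.47 on the WT and KO arrays of slide 1, 3.91 on the slide 2 WT array, 4.26 on the mixed array, 3.86 and 3.92 on the MDS arrays, 3.87, 4.14 and 3.96 on the MDS/MPN arrays and 4.20 on the undetermined array. Its SD over the 6 individual KO arrays was 0.14, a range of 1.26-fold, and only 1.56% of the 14306 features well above background on all 10 arrays had a smaller one.

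Among the erasers, Tet1 (chromosome 10, 62804570 to 62887469), an oxidase with its own CpG-binding domain, varied most. It was at 0.25 on the WT array and -0.39 on the KO array of slide 1, and at 0.78 on the WT array and 1.03 on the mixed array of slide 2. The MDS arrays read 0.47 and 1.14, the MDS/MPN arrays -0.81, 1.45 and -0.21, and the undetermined array -1.51. The genotypes and disease labels thus overlapped: the undetermined array, MDS/MPN replicates 1 and 3 and the slide 1 KO array lay below both WT arrays, while MDS/MPN replicate 2, MDS replicate 2 and the mixed array lay above both. The SD over the 6 individual KO arrays was 1.14, a 7.74-fold range, and 97.5% of the 14306 features had a smaller SD.

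Tet2 (chromosome 3, 133463677 to 133545136), the Tet gene most often mutated in myeloid disease, showed the most even direction. It read -0.42 on the WT array and 0.32 on the KO array of slide 1. On slide 2 it was -0.24 on the WT array, -0.36 on the mixed array, 0.46 and 0.50 on the MDS arrays, -0.03, 1.23 and 0.64 on the MDS/MPN arrays and 0.16 on the undetermined array. Both WT arrays and the mixed array were the lowest 3 of the 10, and each of the 6 individual KO arrays and the slide 1 KO array lay above both WT arrays.

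Tet3 (chromosome 6, 83362373 to 83457208), the family member of the early embryo, was read at 47.3 to 132 intensity units. Its levels were -0.79 and -0.47 on the WT and KO arrays of slide 1, -0.86 on the slide 2 WT array, -0.65 on the mixed array, -1.61 and -1.05 on the MDS arrays, -0.43, -1.19 and -0.94 on the MDS/MPN arrays and -0.90 on the undetermined array. MDS replicate 1 was the lowest and MDS/MPN replicate 1 the highest, and the disease groups overlapped.

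Of the isocitrate dehydrogenases, Idh1 (chromosome 1, 65158616 to 65186479) was at -0.81 and 0.16 on the WT and KO arrays of slide 1. On slide 2 it read -1.11 on the WT array, -0.88 on the mixed array, -1.78 and -1.84 on the MDS arrays, -1.22, -1.09 and -0.71 on the MDS/MPN arrays and -0.65 on the undetermined array. Both MDS arrays were below every other array, and the slide 1 KO array was above every other one.

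Idh2 (chromosome 7, 80094845 to 80118608) was a bright probe, at 11838 to 28635 intensity units. It read 6.97 and 7.62 on the WT and KO arrays of slide 1, 6.88 on the slide 2 WT array, 7.07 on the mixed array, 6.82 and 6.72 on the MDS arrays, 7.21, 6.57 and 7.56 on the MDS/MPN arrays and 7.74 on the undetermined array. The undetermined array was the highest and MDS/MPN replicate 2 the lowest, the reverse of Tet1 and Dnmt3a on those arrays.

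The spread among the 6 individual KO arrays was nearer the middle of all features for the other 6 members. Their SDs were 0.39 for Dnmt1, 0.64 for Dnmt3a, 0.44 for Tet2, 0.39 for Tet3, 0.51 for Idh1 and 0.48 for Idh2, beside a median of 0.49 over the 14306 features. MDS/MPN replicate 2, the brightest array, was the highest of the 6 for 4 members (Dnmt1, Dnmt3a, Tet1 and Tet2). The share of all features highest on that array is not given here, so the count does not set the members apart. That array also had the highest summed level of the 8 B cell markers, at 6.03 (log2 of the summed signal over the 75th percentile) with 7 of 8 well above background, beside 4.28 to 5.76 on the other 9 arrays. Vpreb1, a surrogate light chain gene of early B cells, read 4.79 there, and Ebf1, a B lineage transcription factor, read 0.24 and was well above background on that array alone. The next highest B cell level, 5.76, was on the undetermined array, the lowest of the 6 for Dnmt3a and Tet1. The part of that array's brightness and of B lineage RNA in these values was not tested.

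The first comparison asked whether the genes differ with loss of Ezh2, over all 8 KO arrays and both WT arrays with slide as a block, which needs no time label. In it, 0 of 22373 features passed an adjusted p of 0.05 by limma (0%), and 1238 (5.53%) had an unadjusted p under 0.05. Without the slide 1 WT array 177 features passed, and without the slide 1 KO array 154. Of the 8 genes, 7 had a positive KO minus WT difference, with a median of 0.35 beside 0.03 over all features, of which 53.3% were positive, and none of the 8 passed.

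Tet2 had the largest difference, 0.66 ± 0.41 (SE, 8 KO and 2 WT arrays, limma adjusted p = 0.968, 95% interval -0.25 to 1.57). It was above the WT array of its own slide on 7 of 8 KO arrays, a count that 15.2% of all features reached or passed, and the exception was the mixed array at -0.12. Leaving out each array in turn moved the difference only from 0.57 to 0.75.

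Dnmt1 was next at 0.60 ± 0.39 (limma adjusted p = 0.968), higher on 6 of 8 KO arrays, but slide 1 decided the value. Without the slide 1 WT array, or without the slide 1 KO array, it was 0.0996, and without the slide 2 WT array it was 1.49. Dnmt3b followed at 0.40 ± 0.29 and Idh2 at 0.38 ± 0.38, higher on 6 and 5 of 8 KO arrays. These too were smaller without either slide 1 array, at 0.12 and 0.22.

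Idh1 differed by 0.32 ± 0.42, which became -0.0554 without either slide 1 array, Dnmt3a by 0.20 ± 0.45 and Tet3 by 0.05 ± 0.35. Tet1 was the member below WT, at -0.59 ± 0.75, with 3 of 8 KO arrays above their WT array and a 95% interval of -2.24 to 1.07. With limma adjusted p values of 0.968 to 0.999 and intervals this wide, the test does not show that the members were equal between genotypes.

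**Figure D2:**
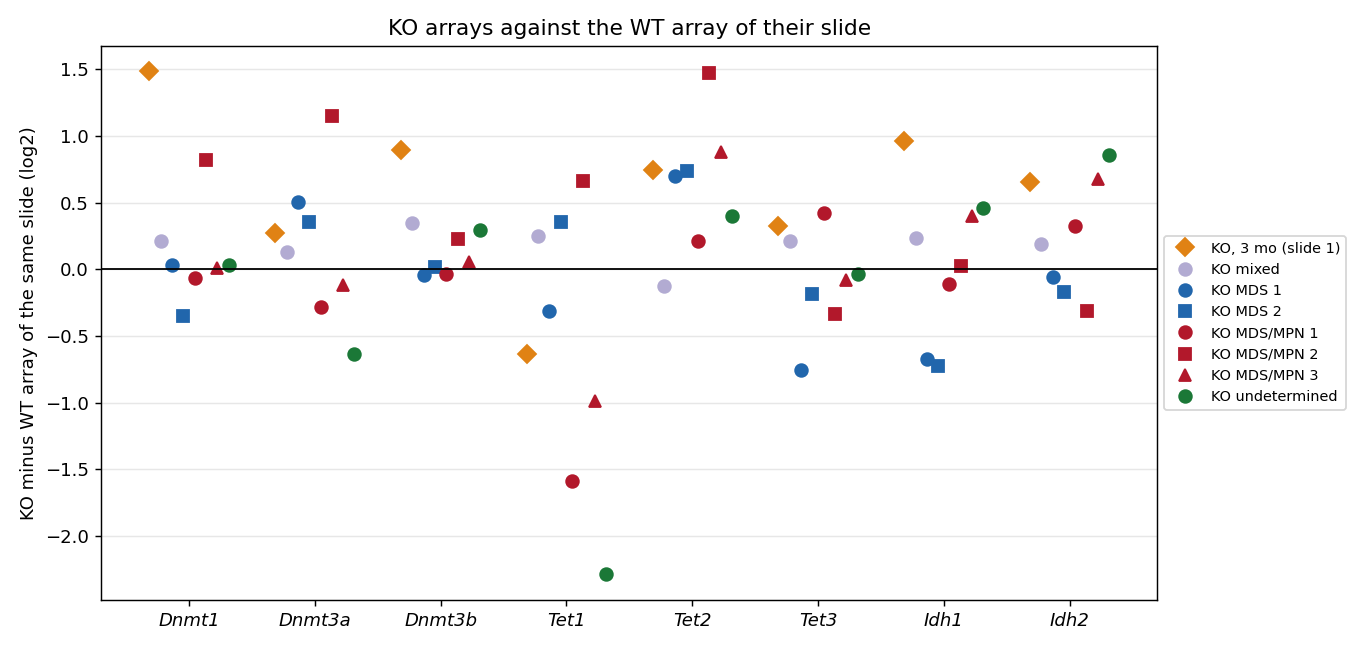
Difference between each of the 8 KO arrays and the WT array of its own slide (log2, vertical axis) for each gene. Colours and symbols give the array, and diamonds the slide 1 KO array. For Tet2, 7 of 8 arrays lie above 0, and the slide 1 KO array is highest for Dnmt1 at 1.49.

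On slide 1 alone, with 1 array of each genotype and no replicate check, 7 members read higher in the KO. The differences were 1.49 for Dnmt1 (2.80-fold), 0.97 for Idh1 (1.95-fold), 0.89 for Dnmt3b (1.86-fold), 0.75 for Tet2 (1.68-fold), 0.65 for Idh2 (1.57-fold), 0.33 for Tet3 and 0.27 for Dnmt3a, and Tet1 was lower at -0.64. Dnmt1 was the only member at least 1 log2 unit higher, as were 12.8% of all features in this pair, and the median difference over all features was 0.23. The other pair of single arrays, mixed KO and WT on slide 2, differed by at most 0.35, for Dnmt3b. Both WT arrays, set against each other, were 0.77 apart for Dnmt1 and 0.53 for Tet1, with slide 2 higher, and within 0.33 for the other members.

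Within slide 2, the 6 individual KO arrays were compared with the 1 WT array, which was assumed to vary as they do. Here 115 of 19609 features passed by limma, 0.586% of those tested, with 915 (4.67%) at an unadjusted p under 0.05. The count depended on single arrays: it was 0 without MDS replicate 1 or MDS/MPN replicate 3, 4 without MDS replicate 2, 12 without the undetermined array and 215 without MDS/MPN replicate 2. No member was among the 115, and the limma adjusted p was 0.9999 for each of the 8.

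Tet2 was again the member with an even direction, at 0.73 ± 0.51 (SE, 6 KO arrays and 1 WT array, 95% interval -0.42 to 1.88), above WT on 6 of 6 arrays. Every KO array lay above WT for 9.28% of all features, so the count alone does not set Tet2 apart. Tet1 differed by -0.69 ± 1.0, with 2 of 6 arrays above WT. On the 2 MDS arrays alone that difference was 0.02, and without the undetermined array it was -0.37. The second Tet1 probe gave a smaller difference, -0.12, with 3 of 6 arrays above WT.

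The writers and dehydrogenases differed from the WT array by less than their standard errors. The differences were 0.08 ± 0.48 for Dnmt1, 0.16 ± 0.63 for Dnmt3a, 0.09 ± 0.38 for Dnmt3b, -0.10 ± 0.55 for Idh1 and 0.22 ± 0.53 for Idh2, and that of Tet3 was -0.16 ± 0.48.

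The next comparison set the disease labels against each other. On slide 2, the MDS, WT and mixed arrays shared the first line and the MDS/MPN and undetermined arrays the second, so disease and slide line cannot be told apart. By limma, 0 of 20738 features passed (0%), and 922 (4.45%) had an unadjusted p under 0.05. The members had a median MDS/MPN minus MDS difference of 0.24, 6 of 8 positive, beside -0.02 and 48.7% over all features.

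Idh1 was the member whose disease groups did not overlap. Its mean was -1.81 ± 0.04 (SD, n = 2) in MDS and -1.01 ± 0.27 (SD, n = 3) in MDS/MPN, a difference of 0.80 ± 0.34 (SE), or 1.74-fold, with a 95% interval of -0.04 to 1.64 and a limma adjusted p of 0.992. Of all features, 7.74% had groups that did not overlap with MDS/MPN higher. The MDS arrays were below the WT and mixed arrays of their own slide line, and the undetermined array, on the line of the MDS/MPN arrays, read -0.65. The part of the slide line was not tested. Under another background correction (normexp) the difference was 0.37.

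The other writers and erasers overlapped between the disease labels. Tet3 differed by 0.48 ± 0.40, Dnmt1 by 0.41 ± 0.42, Idh2 by 0.34 ± 0.41, Tet2 by 0.13 ± 0.46 and Dnmt3b by 0.10 ± 0.32, while Dnmt3a differed by -0.18 ± 0.52 and Tet1 by -0.66 ± 0.72. MDS/MPN replicate 2 decided several of these: without it Tet1 was at -1.31 and Dnmt3a at -0.63 (limma adjusted p = 0.132 and 0.139), with Idh2 at 0.62, Dnmt1 at 0.13 and Tet2 at -0.18.

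The last comparison asked whether the KO minus WT difference itself changed between slide 1 and slide 2, labelled 3 and 9-12 months. By limma, 0 of 23301 features passed (0%), and 1160 (4.98%) had an unadjusted p under 0.05. All 8 members had a lower KO minus WT difference on slide 2, with a median of -0.46 beside -0.23 over all features, of which 37.3% were positive. Dnmt1 moved most, at -1.41 ± 0.82, followed by Idh1 at -1.07 ± 0.93 and Dnmt3b at -0.81 ± 0.66, and the limma adjusted p was 0.99997 for each. With the time labels of the value table the Dnmt1 value turned to 0.64 and that of Tet2 to 1.04.

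Of the genes with several probes, Dnmt3b had 3. Its other 2 probes read 1.55 and 2.06, and 1.44 and 1.87, on the WT and KO arrays of slide 1, with the KO array higher on each. On slide 2 they read 2.49 and 1.99 on the WT array and 2.39 to 2.70 and 1.96 to 2.18 on the 6 individual KO arrays, which lay on both sides of WT. The second Tet1 probe read -0.85 on the slide 2 WT array, -0.52 and -0.46 on the MDS arrays, -1.81, -0.12 and -1.51 on the MDS/MPN arrays and -1.36 on the undetermined array. It thus was low on the same 3 individual KO arrays as the brightest probe and high on MDS/MPN replicate 2.

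The second Tet2 probe was well above background on 8 of 10 arrays. It read -2.22 and -1.37 on the WT and KO arrays of slide 1, -2.50 on the slide 2 WT array, -1.85 on the mixed array, -1.20 and -1.60 on the MDS arrays, -2.26, -0.37 and -1.48 on the MDS/MPN arrays and -1.74 on the undetermined array. The slide 2 WT array and MDS/MPN replicate 1 were the 2 not well above background, so no fold and no count against the slide 2 WT array is given. On slide 1, where it was detected on both arrays, the difference between KO and WT was 0.85. The other 2 Tet3 probes were well above background on 1 and 3 of 10 arrays and carry no comparison. The scanner files used here do not say which exon each probe reads.

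**Figure D3:**
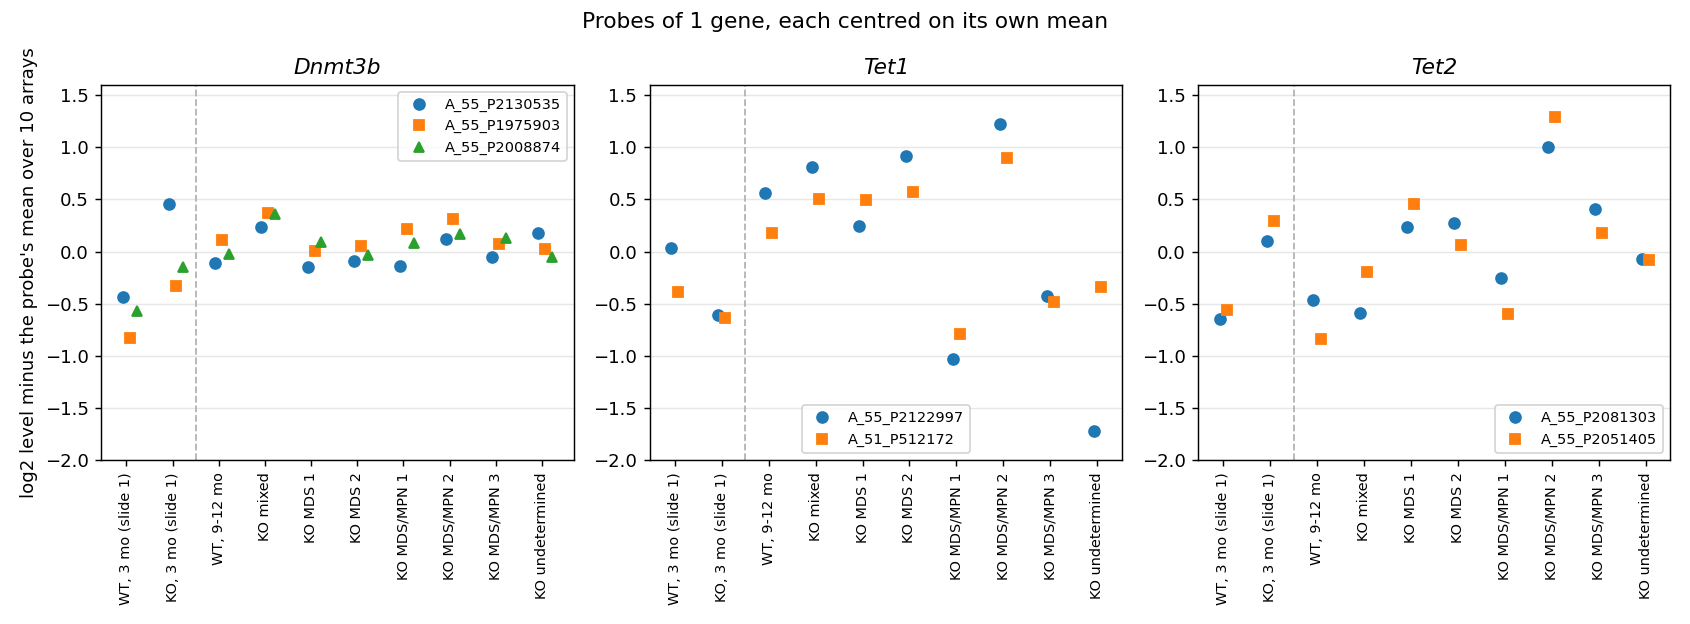
Probes of Dnmt3b, Tet1 and Tet2, each centred on its own mean over the 10 arrays (log2, vertical axis), with symbols for the probes and a dashed line between slide 1 and slide 2. The Tet1 probes are both low on MDS/MPN replicates 1 and 3 and the undetermined array and both high on MDS/MPN replicate 2.

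Of the marker lists, those of the LSK gate and of B cells differed in summed level between the disease labels without overlap. The summed B cell marker level was 4.66 to 4.74 on the MDS arrays, 5.24 to 6.03 on the MDS/MPN arrays and 4.28 to 4.69 on the WT arrays. On MDS/MPN replicates 1 and 3 the sums of 5.24 and 5.29 came mostly from Cd79b, which read 5.14 and 5.22. The mean log2 level of the B cell markers did overlap between the labels. It was -1.39 on MDS replicate 1 and lower, at -1.68, on MDS/MPN replicate 3. The summed level of the 8 LSK gate markers (log2 of the summed signal over the 75th percentile) was 8.77 to 8.89 on the MDS arrays, 7.83 to 8.04 on the MDS/MPN arrays and 8.08 on the undetermined array, beside 8.59 to 8.95 on the WT arrays, 9.00 on the mixed array and 8.84 on the slide 1 KO array. That of the 10 neutrophil granule markers was 8.35 and 10.10 on the WT arrays, 10.697 and 10.06 on the MDS arrays, 11.49, 10.39 and 12.00 on the MDS/MPN arrays and 12.12 on the undetermined array, with 11.45 on the slide 1 KO and 9.70 on the mixed array. The neutrophil levels of the disease labels overlapped, since MDS replicate 1 lay above MDS/MPN replicate 2. The 3 individual KO arrays with the lowest Tet1 were those with the highest summed neutrophil level, and MDS/MPN replicate 2, with the highest Tet1, was below them in it. The mean log2 level of the same markers did not keep that order. It was 5.16 on MDS/MPN replicate 2, 3.69 and 6.15 on MDS/MPN replicates 1 and 3 and 4.65 on the undetermined array. Mpo read 9.45 on MDS/MPN replicate 2, beside 10.48 on replicate 1 and 11.43 on the undetermined array, but S100a8 read 5.86, beside 2.68 and 3.76.

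The summed LSK markers did not follow Tet1 as the summed neutrophil markers did, since MDS/MPN replicate 2 was among the low arrays. Their mean log2 level did separate the same arrays. It was 2.02 on the undetermined array and 2.70 and 2.79 on MDS/MPN replicates 1 and 3. On MDS/MPN replicate 2 it was 3.23, and on the MDS arrays 3.82 and 3.70. In summed level, the erythroid markers read 2.76 to 3.00 on the WT arrays, 7.65 and 8.43 in MDS, 7.84, 3.87 and 7.29 in MDS/MPN and 8.68 on the undetermined array, so they were high on arrays with high and with low Tet1. The monocyte, mast cell and T cell lists were at 6.12, 1.88 to 3.51 and 4.29 to 4.36 on the WT arrays and at 5.94 to 6.84, 3.29 to 6.59 and 3.87 to 5.13 on the 8 KO arrays. The part of other cells in the Tet1, Idh1 and Tet2 values was not tested.

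**Figure D4:**
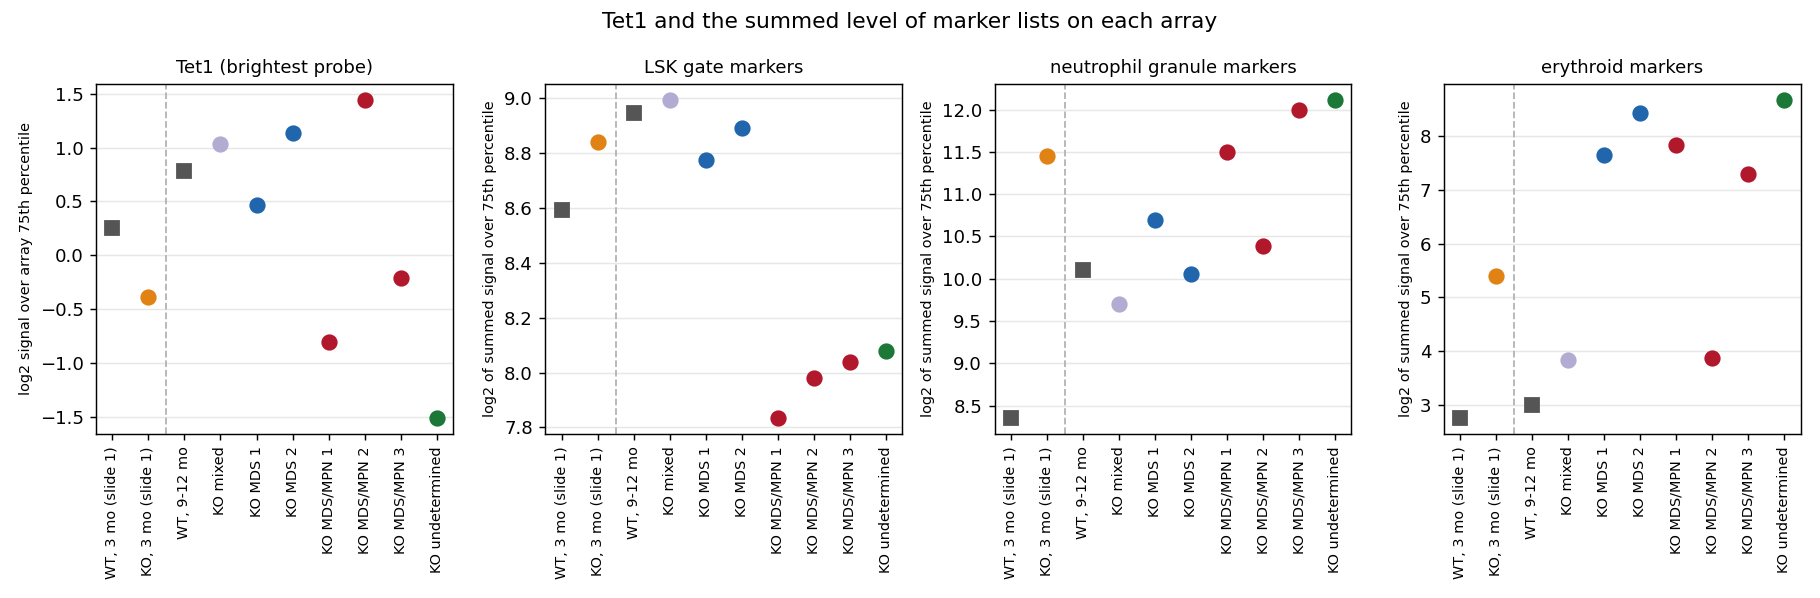
Tet1 (log2 signal over the 75th percentile) and the log2 summed level of the LSK gate, neutrophil granule and erythroid marker lists on each of the 10 arrays, with WT as squares and KO as circles. Tet1 is at -1.51, -0.81 and -0.21 on the 3 individual KO arrays whose neutrophil level is 12.12, 11.49 and 12.00.

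Around the members, none of the 7 lists of pathway genes had a gene that passed limma in the comparison over both slides. The S phase genes shared the sign of the Dnmt1 difference: 15 of 15 measured DNA replication genes had a positive one, beside 53.3% of all features, with a median of 0.56. Their summed level was 9.49 on the WT and 10.54 on the KO array of slide 1, the pair that also decided the Dnmt1 value. The individual KO arrays did not share an order. Dnmt1 was highest on MDS/MPN replicate 2, at 2.75, where the summed replication level was 9.45. On the undetermined array that level was 10.49, the highest of the 6, and Dnmt1 read 1.96. Cdt1, a replication licensing factor, differed by 1.01 ± 0.47 and Ccne1, cyclin E, by 2.08 ± 0.86.

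The partners of the writers had 6 of 7 positive, with a median of 0.50. Uhrf1, which brings Dnmt1 to hemimethylated DNA, differed by 0.69 ± 0.44 and read 5.23 and 6.82 on the WT and KO arrays of slide 1. As for Dnmt1, that pair carried the value, and within slide 2 the Uhrf1 difference was 0.14 ± 0.54. Usp7, a deubiquitinase that binds Dnmt1, differed by 0.50 ± 0.31. Dnmt3l, a cofactor of the de novo enzymes without catalytic activity, was not well above background on either WT array and was so on 5 of 8 KO arrays (limma adjusted p = 0.957). It entered the test through the KO arrays alone, so these counts do not support a difference. No fold is given for values this dim.

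Downstream of the Tet enzymes, the base excision list had 10 of 15 positive with a median of 0.13. The glycosylase Neil2 differed by -1.90 ± 0.76, well above background on both WT and 4 of 8 KO arrays. The slide 1 WT array, at 1.42 beside -1.60 on the slide 2 WT array, decided that size, and within slide 2 the difference was -1.06. Xrcc1, a repair scaffold, differed by 0.56 ± 0.32. Both measured Tet partners were below WT, Cxxc5, a CpG-binding protein, by -0.54 ± 0.53 and Ogt, the O-GlcNAc transferase that binds Tet proteins, by -0.25 ± 0.31.

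The readers of methyl-CpG were split, with 3 of 7 positive and a median of -0.22. Zbtb38 differed by -0.94 ± 0.40 and Mbd2 by 0.75 ± 0.35. In the supply of substrates, the 2-oxoglutarate and succinate genes had 10 of 11 positive with a median of 0.37, led by p with fumarase Fh1 at 0.65 ± 0.48 and Idh3a at 0.50 ± 0.38. Within slide 2 that of Fh1 was 0.36. The S-adenosylmethionine cycle, which makes the methyl donor of the Dnmt enzymes, had 4 of 7 positive with a median of 0.14. Ahcy, which removes its product, differed by 0.87 ± 0.48 and Adk by 0.41 ± 0.47. The lowest limma adjusted p over these 7 lists was 0.808.

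Within slide 2 the medians of these lists stood beside -0.0141 over all features, of which 48.8% were positive. The DNA replication median was 0.15 with 11 of 15 positive, that of the writers' partners 0.14 with 5 of 7, and that of the 2-oxoglutarate genes 0.24 with 9 of 11. The base excision genes had 0.0758 with 10 of 15, the readers 0.0730 with 4 of 7 and the S-adenosylmethionine cycle -0.12 with 3 of 7. The Tet partners lay farther below WT than over both slides, at -0.58 with 0 of 2 positive. Dnmt3l was well above background on 4 of 6 individual KO arrays and not on the WT array, with the same limit.

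Between the disease labels, 15 of 15 DNA replication genes had a higher mean in MDS/MPN, with a median of 0.42. So did 9 of 11 genes of 2-oxoglutarate metabolism, the pathway of Idh1, with 0.41, beside 48.7% of all features. MDS/MPN replicates 1 and 3 carried these means. The summed DNA replication level was 10.16, 9.45 and 10.12 on the MDS/MPN arrays and 9.76 and 9.41 on the MDS arrays. That of the 2-oxoglutarate genes was 9.57, 8.43 and 9.63, beside 8.88 and 8.64. Gadd45b and Gadd45g, stress-response genes linked to active demethylation, differed by 1.61 ± 0.64 and 1.21 ± 0.48. Zbtb4, a methyl-CpG reader, was lower in MDS/MPN by -1.82 ± 0.46 and Cxxc5 by -1.23 ± 0.38. Zbtb4 was well above background on both MDS arrays but on only 2 of 3 MDS/MPN arrays, so its size rests partly on dim values. The limma adjusted p of these 4 named genes was 0.992 each. They and both lists carry the same overlap of disease and slide line as Idh1.

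**Figure D5:**
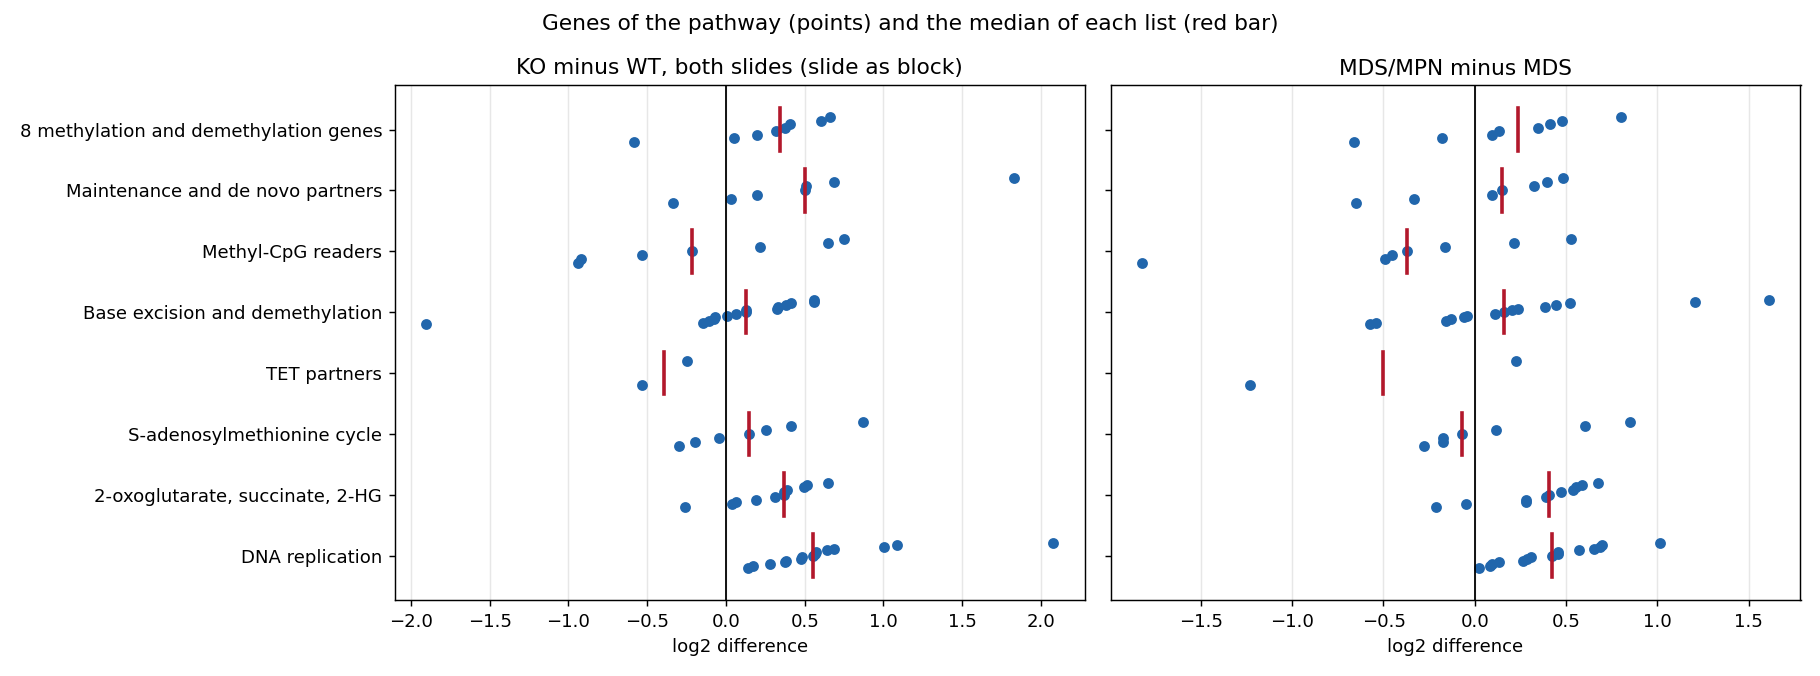
Differences of single genes (points, log2, horizontal axis) and the median of each list (red bar) for KO minus WT over both slides (left) and MDS/MPN minus MDS (right), by list of pathway genes. All 15 DNA replication genes lie above 0 in both panels, with medians of 0.56 and 0.42.

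The named genes whose pattern over the 10 arrays was nearest to each member were found by the root mean square difference of centred log2 values, among 9703 genes well above background on all arrays. They were Ptpn7 (0.12) and Mtbp (0.17) for Dnmt1, Parp14 and Suz12 (both 0.13) for Dnmt3a, and Cdh26 (0.10) and the replicative helicase subunit Mcm4 (0.11) for Dnmt3b. Suz12 is a subunit of the complex that holds Ezh2. For Tet1 they were the transcription factors Zeb1 (0.27) and Tcf4 (0.28), and for Tet2 they were Man2a1 (0.20) and Ncoa6 (0.21). Tet3 had Ccdc43 and Sim2 (both 0.17), Idh1 had Tubb6 (0.21) and Dsn1 (0.23), and Idh2 had Acsf3 (0.09) and Nedd8 (0.10). The median over all genes ran from 0.46 to 1.11 by member.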

How the data were processed

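Signals came from 10 Agilent one-colour arrays, with 0.02 µg of RNA labelled per array, per the labels' protocols. Each deposited scanner file holds spot intensity values, from Feature Extraction 10.7.1.1 per the file headers and version 9.1 per the submitters' processing notes, with background subtracted and no scaling between arrays. A value table deposited beside them gives a ratio, found from its values to be the same intensity over the array's 75th percentile. Its columns matched 1 scanner file each, and the time labels of 4 were exchanged.

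Values here were log2 intensities minus the array's 75th percentile, with spots of a probe averaged and control and outlier spots left out. Probes were named through RefSeq accessions and RefSeq GRCm38.p6 (the array annotation is on mm9): 27656 of 55681 probes had 1 symbol. The brightest probe stood for its gene, and unnamed probes stayed as features. Features entered a fit when the scanner software called them well above background on 50% or more of any group's arrays. Tests used limma 3.58.1 in R 4.3.3 with Benjamini-Hochberg adjustment over all features and a threshold of 0.05. In simulated data, limma called 41% of changes of 2 log2 units over both slides, and 11% in the 6 individual KO arrays against WT. It called 0% of them for MDS/MPN against MDS and 0% for the difference between slides. Of changes of 6 log2 units it called 86% and 43% in those comparisons. A count of 0 there therefore says little about changes of 2 log2 units. Tables and figures were made with numpy 2.4.6, pandas 2.3.3 and matplotlib 3.10.9 in Python 3.11.15. Precision is limited by how few arrays there are. The 8 members, the pathway and marker lists and the rule for named genes (list members by size among those that passed, otherwise the 2 with the smallest p, and 2 nearest patterns per member) were chosen with earlier results of these data known. For the pathway lists the rule was kept over both slides, where Uhrf1 was named in addition to it. In the other comparisons only some lists have named genes.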

Additional observations from a re-analysis of the deposited data

Results flagged for a closer look

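Dnmt1 on MDS/MPN replicate 2, at 2.75 (log2 signal over the 75th percentile), stood apart from the other 5 individual KO arrays, which read 1.58 to 1.96. The gap to the next array was 0.669 of the whole range, above Dixon's critical share for 6 samples. Chance gives such a gap in about 1 of 20 groups, and 8 genes were examined. The same array had the highest 75th percentile signal of the 10, at 301.7 intensity units.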

How the results depend on the processing

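No paired analysis was possible because the labels carry no replicate numbers. No member passed the threshold under any alternative run, where the lowest limma adjusted p was 0.132, and 462 of 512 member values under an alternative kept their sign. Counts of features that passed moved more. Over both slides it was 0, and 3 with quantile normalization, 4 with median scaling, 3 with the percentile over probes detected on all arrays (an alternative chosen after seeing the data), 2 with no slide block, and 0 to 177 without 1 array in turn (177 without the slide 1 WT array, 154 without the slide 1 KO array). Within slide 2 it was 115, against 247 with quantile normalization, 183 with median scaling, 212 with detected probes, 182 with the mixed array added, 50 with no filter, 0 with normexp, with well above background on every array, with limma's trend and robust options and with the MDS arrays alone, and 0 to 215 without 1 array in turn (215 without MDS/MPN replicate 2, 0 without MDS replicate 1 or MDS/MPN replicate 3). The difference between slides went from 0 to 184 with quantile normalization and 2 with the value table's time labels. The cause was not tested. Median scaling moved the median of all features by 0.13 over both slides and 0.20 within slide 2, and detected probes by -0.20 and -0.12.

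Small member differences turned sign. Over both slides, detected probes gave -0.00469 for Dnmt3a and -0.15 for Tet3, no slide block gave -0.0408 for Idh1 and -0.0783 for Tet3, and leaving out 1 array gave -0.0554 to 0.97 for Idh1 and -0.11 to 0.33 for Tet3. Within slide 2, detected probes gave -0.0430 for Dnmt1 and -0.0372 for Dnmt3b, quantile normalization -0.0203 for Dnmt3b, median scaling 0.0990 for Idh1 and 0.0421 for Tet3, and the median over probes 0.40 for Tet3. The MDS arrays alone gave -0.16 for Dnmt1, -0.0127 for Dnmt3b, -0.11 for Idh2 and 0.0221 for Tet1. Leaving out 1 array there gave -0.0664 to 0.17 for Dnmt1, -0.0347 to 0.32 for Dnmt3a and -0.22 to 0.0206 for Idh1. Between disease labels, detected probes gave -0.0670 for Dnmt3b and -0.0306 for Tet2, quantile normalization -0.0342 for Dnmt3b, and leaving out 1 array -0.63 to 0.0889 for Dnmt3a and -0.18 to 0.45 for Tet2. Between slides, median scaling gave 0.0862 for Dnmt3a, 0.14 for Tet1 and 0.18 for Tet2, normexp 0.0973 for Dnmt3a and 0.23 for Tet2, the median over probes 0.0337 for Tet1 and 0.0973 for Tet2, detected probes 0.14 for Dnmt3a, 0.19 for Tet1 and 0.24 for Tet2, and quantile normalization 0.0249 for Tet2. The value table's time labels gave 0.64 for Dnmt1, 0.21 for Dnmt3a, 0.0677 for Dnmt3b and 1.04 for Tet2, and leaving out 1 array gave -0.31 to 0.0498 for Dnmt3a, -0.33 to 0.26 for Tet1 and -0.16 to 0.0920 for Tet2. The cause was not tested.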

Other observations

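The array labelled mixed was set beside the 5 MDS and MDS/MPN arrays whose disease labels it combines. It lay within their range for 6 of the 8 members, below it for Tet2 and above it for Dnmt3b, and 18.9% of 14306 features lay outside that range. The slide 1 KO array, which the value table labels mixed, lay outside the range for 3 members, each time above it (Dnmt3b, Idh1 and Idh2), and 43.7% of features lay outside. These counts have no test.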
